A study of Rattus norvegicus with 16 samples.

Results

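Respiratory complex I, the NADH:ubiquinone oxidoreductase of the inner mitochondrial membrane, was measured through 37 nuclear genes, out of 18166 genes that the array names on a single-gene probe. Members were all genes whose symbol begins with Nduf, then a, b, c, s or v, then a digit, without Ndufa4 and Ndufa4l2. Each gene was read from its single-gene probe, and where a gene had 2 (Ndufb3 and Ndufv3), from the one with the higher mean over the 16 arrays. The members were 6 core subunits (Ndufs1, Ndufs3, Ndufs7, Ndufs8, Ndufv1 and Ndufv2), 25 accessory subunits and 6 extra gene copies, of which 2 are annotated as pseudogenes. Of the accessory subunits, 9 belong to the matrix arm, 6 to the proximal membrane arm and 10 to the distal membrane arm. Ndufa3, Ndufa10, Ndufa13 and Ndufb1 had no single-gene probe and were not analysed here, nor were the subunits encoded in mitochondrial DNA.

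Complex I takes electrons from NADH, passes them through a flavin and a chain of iron-sulfur clusters in its matrix arm to ubiquinone, and pumps protons through its membrane arm. Core subunits hold the redox centres and the pumping machinery and are shared with bacteria, while accessory subunits surround them and are needed for assembly and stability. In glomus cells, the chemoreceptor cells of the carotid body, complex I is known for a role in acute oxygen sensing through NADH and reactive oxygen species.

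The samples were sorted carotid body cells of Wistar rats of 9 to 11 weeks, with 4 arrays in each of 4 groups. These were hypoxic neuroblasts, normoxic neuroblasts, hypoxic glomus cells and normoxic glomus cells. Hypoxic rats had spent 3 days in hypoxic chambers and normoxic rats had breathed ambient air. Carotid bodies of both sides were mixed and dispersed, and all cells were stained with HNK-1 antibody, with positive cells collected as neuroblasts and negative cells as glomus cells, so the glomus sort is defined by absence of the epitope. Whether replicates were separate animals is not stated in the labels, so p-values measure only the spread between these samples, which may be technical. The labels also give no date or batch, so a batch that ran with oxygen condition or sort cannot be told apart from it.

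A single array was unlike its group: hypoxic neuroblast replicate 1 correlated with the other 3 at 0.914 on average, while all other arrays reached 0.949 or more. Values are log2 intensities, and a level of one probe was never set against that of another. The mean of the array medians over all probes was 4.80 ± 0.10 in hypoxic neuroblasts against 4.52 ± 0.09 in normoxic neuroblasts, and 4.72 ± 0.02 in hypoxic glomus cells against 4.51 ± 0.10 in normoxic glomus cells (log2 level, SD, n = 4 each). Accordingly each result was also computed after centring every array on its median. The summed level of 7 glomus cell and sympathoadrenal markers (log2 of the summed linear values) spanned 11.78 to 13.40 in hypoxic neuroblasts and 13.20 to 13.41 in normoxic neuroblasts. It spanned 13.31 to 13.67 in hypoxic glomus cells and 13.65 to 13.87 in normoxic glomus cells. Single markers differed between the sorts in normoxia, where 1 of the 7 was higher in neuroblasts and 2 were lower (limma, adjusted p under 0.05). These were Dbh, at a mean of 9.91 against 6.16 in glomus cells, and Slc18a1 (9.70 against 11.73) and Chga (8.20 against 9.46). Of all probes, 0.996% were higher and 0.828% lower. Th did not pass (12.30 against 12.62), so both sorts carried it. Since whole sorts were measured, fewer cells of a type and less RNA per cell cannot be told apart.

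After hypoxia most complex I genes were higher in both populations. In neuroblasts 29 of 37 rose and 1 fell (Ndufs1), while 18.4% of all probes rose and 13.7% fell (limma, adjusted p under 0.05 over 30429 probes). In glomus cells 28 rose and 0 fell, while 9.37% of all probes rose and 9.5% fell. The median difference of the 37 genes was 1.06 in neuroblasts and 0.83 in glomus cells (log2, hypoxic minus normoxic), against 0.25 and 0.17 over all probes. All 28 genes that rose in glomus cells also rose in neuroblasts. The 4 hypoxic arrays lay above the 4 normoxic arrays for 28 genes in neuroblasts (16.3% of all probes) and for 29 in glomus cells (15.2%). The difference exceeded 1 on the log2 scale, a doubling of the signal, for 21 genes in neuroblasts and 11 in glomus cells. The share of all probes past that size was not computed, so these counts have no baseline.

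Some of these counts moved when the arrays were rescaled. After centring each array on its median, 24 genes rose and 1 fell in neuroblasts, with a median of 0.78, and 19 rose and 1 fell in glomus cells, with a median of 0.61. Ndufs1 was the gene that fell in each case. Centring left 6.0% of all probes higher and 18.0% lower in neuroblasts, and 4.5% higher and 12.4% lower in glomus cells, with all-probe medians of -0.03 and -0.04. Over the brighter 50 percent of probes, the medians without centring were -0.03 in neuroblasts and 0.02 in glomus cells. Over all probes they were 0.25 and 0.17, so centring took off a shift that the median of brighter probes did not show. Quantile normalization left 29 genes that rose and 0 that fell in neuroblasts and 28 and 0 in glomus cells. Among all probes 10.8% then rose and 12.2% fell in neuroblasts, and 7.28% rose and 8.18% fell in glomus cells. Without hypoxic neuroblast replicate 1, 29 rose and 0 fell in neuroblasts, and 29 rose and 1 fell in glomus cells. The shares of all probes were then 14.7% higher and 11.9% lower in neuroblasts, and 12.6% and 11.2% in glomus cells.

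**Figure D1:**
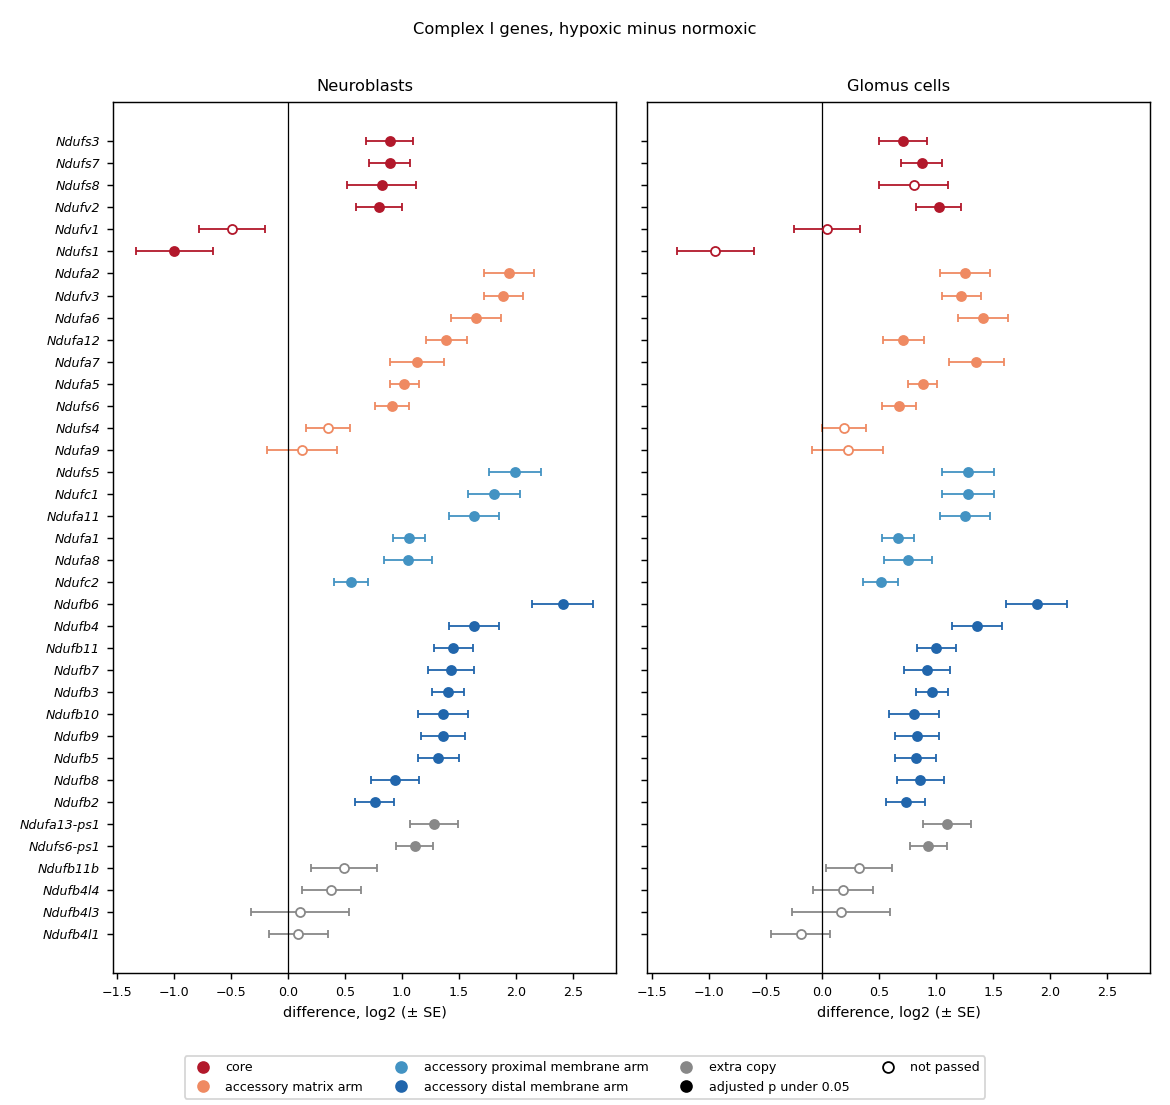
Hypoxic minus normoxic difference of each of the 37 complex I genes (x axis, log2, with limma standard errors), in neuroblasts on the left and glomus cells on the right. Colours give the class and filled points an adjusted p under 0.05. The 10 distal membrane arm genes are all filled in both panels, and Ndufs1 lies below 0 in both.

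Promoter sequences are shown for 3 accessory genes with large rises, 1 from each arm class (Ndufv3, Ndufs5 and Ndufb6), and for Ndufs1, the core gene that moved the other way. The sequences are from RefSeq, build GRCr8, and run 5′ to 3′ over the 250 bases before the gene's start. Capitals mark matches on either strand to any of 5 motifs. These were the palindromic site of nuclear respiratory factor NRF-1, CCGGAAGT (the site of ETS factors such as GABP), AAGATGGC (the site of YY1), and ACGTG and GCGTG, the cores of hypoxia response elements.
Ndufv3, chr20:9613536-9613785, plus strand: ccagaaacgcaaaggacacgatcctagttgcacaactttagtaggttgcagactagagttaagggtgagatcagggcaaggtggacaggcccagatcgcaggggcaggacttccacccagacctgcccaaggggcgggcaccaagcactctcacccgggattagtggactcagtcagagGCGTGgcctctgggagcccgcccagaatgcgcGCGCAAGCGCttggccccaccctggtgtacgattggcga
Ndufs5, chr5:141264403-141264652, minus strand: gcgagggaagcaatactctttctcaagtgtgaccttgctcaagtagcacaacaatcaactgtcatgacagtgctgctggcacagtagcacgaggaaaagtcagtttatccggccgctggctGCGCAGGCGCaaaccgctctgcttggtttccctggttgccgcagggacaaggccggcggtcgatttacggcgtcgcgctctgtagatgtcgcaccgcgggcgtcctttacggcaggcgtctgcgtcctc
Ndufb6, chr5:60206153-60206402, minus strand: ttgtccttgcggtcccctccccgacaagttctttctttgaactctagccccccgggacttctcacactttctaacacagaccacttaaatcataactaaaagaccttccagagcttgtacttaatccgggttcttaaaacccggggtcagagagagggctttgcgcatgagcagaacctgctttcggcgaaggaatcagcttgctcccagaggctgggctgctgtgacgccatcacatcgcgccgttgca
Ndufs1, chr9:72073606-72073855, minus strand: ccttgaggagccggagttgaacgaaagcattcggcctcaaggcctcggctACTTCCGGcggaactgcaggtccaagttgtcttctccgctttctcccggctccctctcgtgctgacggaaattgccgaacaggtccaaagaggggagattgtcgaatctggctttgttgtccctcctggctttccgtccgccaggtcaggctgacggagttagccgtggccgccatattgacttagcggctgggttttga

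Ndufv3 held a GCGTG and an NRF-1 match, the second beginning 39 bases before the start. Ndufs5 held an NRF-1 match beginning 129 bases before the start, and Ndufb6 held none of the 5. Ndufs1 held the ETS match, on the opposite strand, 200 bases before the start. Over windows of 300 bases, 250 before to 50 after the start, 32 of the 37 members had a window, as did 33465 starts in all. The NRF-1 motif was in 7 members (21.9%), against 4.25% of all windows: Ndufa5, Ndufa11, Ndufa12, Ndufb4, Ndufs5, Ndufs6 and Ndufv3. The YY1 motif was also in 7 (21.9%, against 3.17%), in each case after the start. The ETS motif was in 2 (6.25%, against 3.8%), ACGTG in 8 (25%, against 19.3%) and GCGTG in 14 (43.8%, against 29.7%). A single NRF-1 member had an overlapping GCGTG match, and 8 members held none of the motifs. A match of letters is not a measured binding site.

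The core subunits, which include the carriers of the flavin and the iron-sulfur clusters, did not move as one. In neuroblasts 4 of 6 rose and 1 fell, with a median of 0.81 (log2 difference), where 18.4% of all probes rose and 13.7% fell. In glomus cells 3 rose and 0 fell, with a median of 0.75, where 9.37% of all probes rose and 9.5% fell. After centring, 1 rose and 1 fell in neuroblasts (6.0% and 18.0% of all probes). In glomus cells 2 then rose and 1 fell (4.5% and 12.4%). Ndufs7, which carries the last iron-sulfur cluster before ubiquinone, read 8.30, 8.64, 8.97 and 8.86 in hypoxic neuroblasts, against 7.46, 7.86, 8.07 and 7.84 in normoxic neuroblasts. It read 9.00, 8.72, 8.82 and 8.57 in hypoxic glomus cells, against 8.0, 7.85, 7.88 and 7.90 in normoxic glomus cells. The groups did not overlap in either population, and the difference was 0.89 ± 0.18 in neuroblasts (adjusted p = 0.0011) and 0.87 ± 0.18 in glomus cells (adjusted p = 0.00206).

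Ndufv2, an iron-sulfur subunit of the NADH-binding tip, read 8.61, 9.14, 9.42 and 9.67 in hypoxic neuroblasts, against 8.13, 8.49, 8.51 and 8.52 in normoxic neuroblasts. It read 9.49, 9.58, 9.41 and 9.49 in hypoxic glomus cells, against 8.11, 8.69, 8.58 and 8.52 in normoxic glomus cells. Again no hypoxic value fell within the normoxic range, with differences of 0.80 ± 0.20 in neuroblasts (adjusted p = 0.00707) and 1.02 ± 0.20 in glomus cells (adjusted p = 0.00194). The neuroblast call ended after centring (0.52, adjusted p = 0.139).

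Ndufs3, a core subunit of the ubiquinone-reducing part of the matrix arm, read 7.86, 8.5, 8.83 and 8.69 in hypoxic neuroblasts, against 7.20, 7.55, 7.81 and 7.77 in normoxic neuroblasts. In hypoxic glomus cells it read 8.63, 8.21, 8.55 and 8.72, against 7.61, 8.09, 7.81 and 7.76 in normoxic glomus cells. The hypoxic values were the higher ones in both, by 0.89 ± 0.21 in neuroblasts (adjusted p = 0.00456) and 0.71 ± 0.21 in glomus cells (adjusted p = 0.0258). Both calls ended after centring (adjusted p = 0.0855 in neuroblasts and 0.208 in glomus cells), and the glomus call also ended without any one of replicates 1, 3 or 4 of either glomus group.

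Ndufs8, which carries iron-sulfur clusters between Ndufs1 and the ubiquinone site, read 7.76, 9.16, 9.70 and 9.33 in hypoxic neuroblasts, against 7.84, 8.0, 8.65 and 8.18 in normoxic neuroblasts. Its values were 9.59, 9.35, 9.39 and 9.42 in hypoxic glomus cells, against 8.53, 8.71, 8.48 and 8.84 in normoxic glomus cells. The neuroblast groups overlapped through hypoxic replicate 1, and the glomus groups did not overlap. The difference was 0.82 ± 0.30 in neuroblasts (adjusted p = 0.0466) and 0.80 ± 0.30 in glomus cells (adjusted p = 0.0759). Without hypoxic neuroblast replicate 1 both passed, at 1.23 ± 0.19 (adjusted p = 0.000189) and 0.80 ± 0.18 (adjusted p = 0.00376), while 16 of 25 alternatives ended the neuroblast call.

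Ndufs1, the largest core subunit, which receives electrons near the NADH-binding tip, went the other way. The levels were 5.34, 7.18, 7.04 and 7.59 in hypoxic neuroblasts, against 7.78, 7.46, 7.95 and 7.97 in normoxic neuroblasts. It measured 6.98, 7.33, 7.21 and 6.91 in hypoxic glomus cells, against 8.07, 7.70, 8.04 and 8.36 in normoxic glomus cells. Hypoxic neuroblast replicate 1 was far below the other 3, of which the one at 7.59 lay within the normoxic range, and in glomus cells all 4 hypoxic values lay below the normoxic ones (11.3% of all probes). The difference was -1.0 ± 0.34 in neuroblasts (adjusted p = 0.0326) and -0.94 ± 0.34 in glomus cells (adjusted p = 0.0639). Without that replicate the neuroblast call ended (-0.52 ± 0.20, adjusted p = 0.0597) and the glomus difference passed (-0.94 ± 0.18, adjusted p = 0.00128). In all, 7 of 25 alternatives ended the neuroblast call, and after quantile normalization neither population passed (adjusted p = 0.0955 and 0.201).

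Ndufv1, which binds NADH and the flavin, passed in neither population. The arrays gave 8.32, 9.83, 9.94 and 10.0 in hypoxic neuroblasts, against 9.75, 10.01, 10.28 and 10.0 in normoxic neuroblasts. It read 10.16, 10.22, 10.43 and 9.79 in hypoxic glomus cells, against 10.05, 10.08, 10.02 and 10.30 in normoxic glomus cells. The groups overlapped in both, with differences of -0.49 ± 0.29 in neuroblasts (adjusted p = 0.189) and 0.04 ± 0.29 in glomus cells (adjusted p = 0.943). Without hypoxic neuroblast replicate 1 the neuroblast difference was -0.09 ± 0.17 (adjusted p = 0.732).

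**Figure D2:**
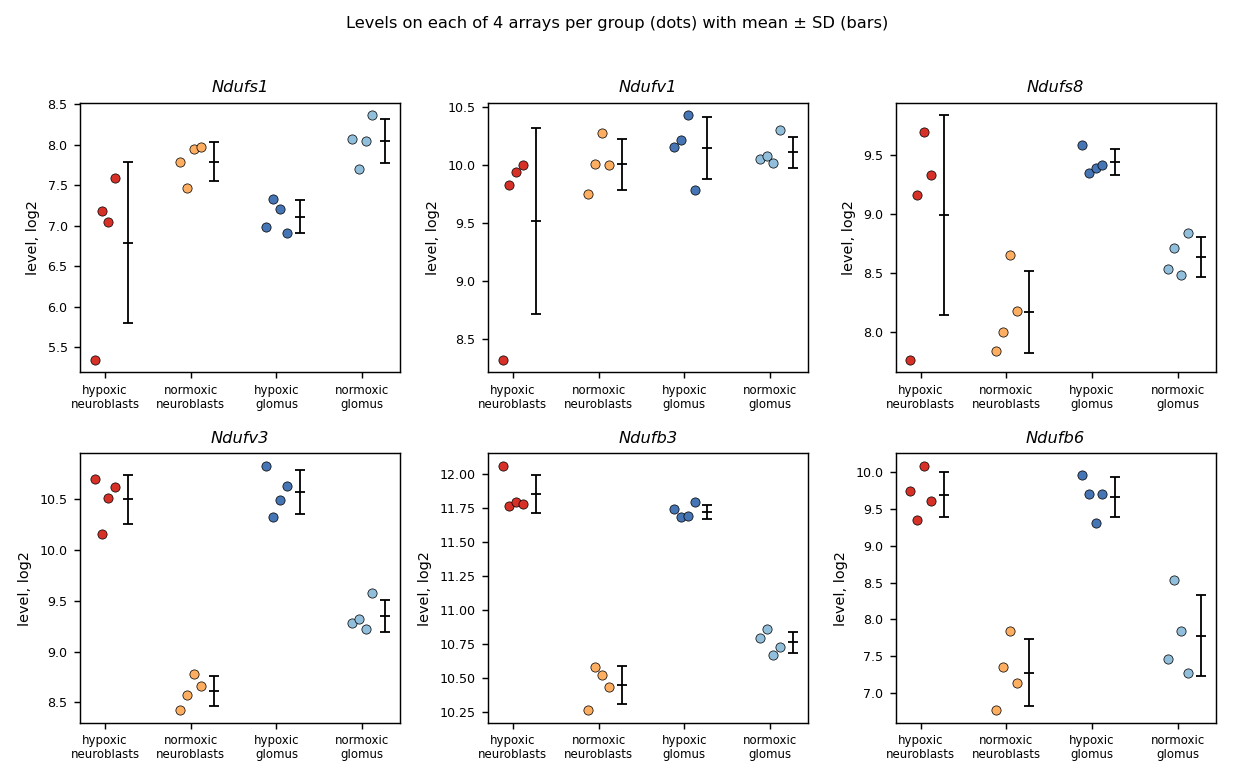
Log2 level on each array (y axis) for complex I genes described in the text, with hypoxic left of normoxic in each population. Bars give the mean ± SD of 4 arrays. Ndufs1 has lower means in the hypoxic groups, Ndufv1 overlaps, and Ndufv3, Ndufb3 and Ndufb6 lie higher on every hypoxic array.

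Nearly all accessory subunits rose. In each population 23 of the 25 passed, with a median difference of 1.36 in neuroblasts and 0.88 in glomus cells (log2). Of all probes, 18.4% rose in neuroblasts and 9.37% in glomus cells. After centring, 21 of 25 rose in neuroblasts and 15 in glomus cells, beside 6.0% and 4.5% of all probes. The exceptions before centring were both of the matrix arm. Ndufa9, which stabilises the junction of the arms, differed by 0.12 ± 0.31 in neuroblasts and 0.22 ± 0.31 in glomus cells, and Ndufs4, an accessory subunit whose loss causes Leigh syndrome in humans, by 0.35 ± 0.19 (adjusted p = 0.157) and 0.19 ± 0.19 (adjusted p = 0.511). In hypoxic neuroblast replicate 1 Ndufa9 read 7.85, against 9.49 to 9.56 on the other 3.

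In the matrix arm 7 of 9 rose in both populations, beside 18.4% of all probes in neuroblasts and 9.37% in glomus cells. The medians of the arm were 1.13 in neuroblasts and 0.88 in glomus cells. Ndufv3, an accessory subunit of the NADH-binding tip, read 10.70, 10.16, 10.51 and 10.62 in hypoxic neuroblasts, against 8.42, 8.57, 8.78 and 8.66 in normoxic neuroblasts. It read 10.83, 10.32, 10.49 and 10.63 in hypoxic glomus cells, against 9.28, 9.32, 9.22 and 9.58 in normoxic glomus cells. The hypoxic values stood clear of the normoxic ones by 1.89 ± 0.17 in neuroblasts (3.71-fold, adjusted p = 8.49e-07) and 1.22 ± 0.17 in glomus cells (2.33-fold, adjusted p = 9.13e-05). Its other probe gave 0.73 ± 0.23 in neuroblasts (adjusted p = 0.0214) and 0.56 ± 0.23 in glomus cells (adjusted p = 0.098), with overlapping groups, so the probes of Ndufv3 disagreed on the size and on the glomus call.

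Ndufa2, a small matrix subunit with a thioredoxin-like fold, read 9.94, 9.62, 10.05 and 10.06 in hypoxic neuroblasts, against 7.42, 8.01, 8.47 and 7.99 in normoxic neuroblasts. Its values were 10.25, 9.95, 9.89 and 10.01 in hypoxic glomus cells, against 8.34, 9.30, 8.71 and 8.74 in normoxic glomus cells. Neither pair of groups overlapped, and the differences were 1.94 ± 0.22 in neuroblasts (3.85-fold, adjusted p = 8.58e-06) and 1.25 ± 0.22 in glomus cells (2.38-fold, adjusted p = 0.000804). Ndufa6, which binds an acyl carrier protein, read 8.92, 8.01, 8.89 and 8.84 in hypoxic neuroblasts, against 6.59, 7.19, 7.27 and 7.02 in normoxic neuroblasts. The levels were 9.02, 8.46, 8.68 and 8.81 in hypoxic glomus cells, against 7.08, 7.53, 7.21 and 7.52 in normoxic glomus cells. All hypoxic values were higher, by 1.65 ± 0.22 in neuroblasts (adjusted p = 3.3e-05) and 1.41 ± 0.22 in glomus cells (adjusted p = 0.00027).

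Ndufa5, a subunit of the ubiquinone-reducing part, lay within narrow ranges in every group. It measured 11.69, 11.48, 11.55 and 11.61 in hypoxic neuroblasts, against 10.46, 10.63, 10.64 and 10.52 in normoxic neuroblasts. The arrays gave 11.63, 11.54, 11.53 and 11.54 in hypoxic glomus cells, against 10.58, 10.85, 10.60 and 10.68 in normoxic glomus cells. The hypoxic arrays were the higher ones throughout, by 1.02 ± 0.13 in neuroblasts (adjusted p = 2.34e-05) and 0.88 ± 0.13 in glomus cells (adjusted p = 0.000185). The other matrix members that rose were Ndufa7, Ndufa12 and Ndufs6, by 0.91 to 1.39 in neuroblasts and 0.67 to 1.35 in glomus cells. The glomus calls of Ndufa12 and Ndufs6 ended after centring (adjusted p = 0.106 and 0.0535).

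In the proximal membrane arm all 6 rose in both populations, beside 18.4% of all probes in neuroblasts and 9.37% in glomus cells. The medians of the arm were 1.34 in neuroblasts and 1.0 in glomus cells. Ndufs5, which faces the intermembrane space, read 10.02, 9.88, 10.88 and 10.58 in hypoxic neuroblasts, against 8.32, 8.17, 8.74 and 8.18 in normoxic neuroblasts. It read 10.33, 10.03, 9.79 and 10.21 in hypoxic glomus cells, against 9.16, 8.96, 8.58 and 8.54 in normoxic glomus cells. No values overlapped, and the rise was 1.99 ± 0.23 in neuroblasts (3.97-fold, adjusted p = 8.85e-06) and 1.28 ± 0.23 in glomus cells (2.43-fold, adjusted p = 0.000824). Ndufc1 and Ndufa11 rose by 1.81 ± 0.23 and 1.63 ± 0.22 in neuroblasts and by 1.28 ± 0.23 and 1.25 ± 0.22 in glomus cells. Ndufa1 and Ndufa8 rose by 1.06 ± 0.14 and 1.05 ± 0.21 in neuroblasts and by 0.66 ± 0.14 and 0.75 ± 0.21 in glomus cells, and the glomus call of Ndufa8 ended after centring (adjusted p = 0.17). The smallest change was that of Ndufc2, 0.55 ± 0.15 in neuroblasts (adjusted p = 0.0101) and 0.51 ± 0.15 in glomus cells (adjusted p = 0.0225). Both Ndufc2 calls ended after centring (adjusted p = 0.317 and 0.326), and the glomus call ended under 6 of 25 alternatives in all.

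In the distal membrane arm all 10 Ndufb genes rose in both populations, beside 18.4% of all probes in neuroblasts and 9.37% in glomus cells. The rises in this arm were 0.76 to 2.41 in neuroblasts and 0.73 to 1.88 in glomus cells. Ndufb6, a small subunit of this arm, had the largest difference of the 37 genes in both. It read 9.74, 9.35, 10.08 and 9.60 in hypoxic neuroblasts, against 6.77, 7.36, 7.85 and 7.14 in normoxic neuroblasts. Its values were 9.95, 9.70, 9.30 and 9.70 in hypoxic glomus cells, against 7.47, 8.53, 7.84 and 7.27 in normoxic glomus cells. The hypoxic groups stood clear above the normoxic ones, by 2.41 ± 0.27 in neuroblasts (5.32-fold, adjusted p = 6.88e-06) and 1.88 ± 0.27 in glomus cells (3.69-fold, adjusted p = 0.000138).

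Ndufb3, another small membrane subunit, read 12.06, 11.76, 11.79 and 11.78 in hypoxic neuroblasts, against 10.26, 10.58, 10.52 and 10.43 in normoxic neuroblasts. The levels were 11.74, 11.68, 11.69 and 11.79 in hypoxic glomus cells, against 10.79, 10.86, 10.67 and 10.73 in normoxic glomus cells. The 2 conditions were clearly apart in each population, by 1.40 ± 0.14 in neuroblasts (2.64-fold, adjusted p = 1.93e-06) and 0.96 ± 0.14 in glomus cells (1.95-fold, adjusted p = 0.000125). The other probe of Ndufb3 gave 1.19 ± 0.15 (adjusted p = 2.3e-05) and 0.92 ± 0.15 (adjusted p = 0.000461), with no overlap in either population. Among the rest of the arm, Ndufb4, Ndufb11, Ndufb7, Ndufb10, Ndufb9, Ndufb5, Ndufb8 and Ndufb2 rose by 0.76 to 1.63 in neuroblasts and 0.73 to 1.36 in glomus cells. After centring, the glomus calls of Ndufb10 (adjusted p = 0.11), Ndufb8 (0.0697), Ndufb2 (0.0629) and Ndufb9 (0.0553) and the neuroblast call of Ndufb2 (0.0665) ended, and that of Ndufb10 in glomus cells also ended without normoxic glomus replicate 1.

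Most of the extra gene copies did not pass the test. Of the 6, 2 rose in each population, where 18.4% of all probes rose in neuroblasts and 9.37% in glomus cells. Their median difference was 0.44 in neuroblasts and 0.25 in glomus cells, near the 0.25 and 0.17 of all probes. These were the pseudogenes Ndufa13-ps1, by 1.28 ± 0.21 and 1.09 ± 0.21, and Ndufs6-ps1, by 1.11 ± 0.16 and 0.93 ± 0.16. The groups of Ndufb4l1, Ndufb4l3, Ndufb4l4 and Ndufb11b overlapped in both populations. The group means of these copies, 4.14 to 5.27, lay near the all-probe medians, which averaged 4.51 to 4.80. These copies may therefore not have been detected, which was not tested. A probe for a copy can also take up the RNA of its parent gene, so these 6 values are uncertain, and this was not tested.

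On each array, the median of the 25 accessory genes was 10.12 ± 0.26 in hypoxic neuroblasts against 8.62 ± 0.17 in normoxic neuroblasts, and 10.10 ± 0.17 in hypoxic glomus cells against 9.22 ± 0.14 in normoxic glomus cells (log2 level, SD, n = 4 each). The median of the 6 core genes was 8.82 ± 0.51 in hypoxic neuroblasts against 8.02 ± 0.21 in normoxic neuroblasts, and 9.12 ± 0.09 in hypoxic glomus cells against 8.30 ± 0.16 in normoxic glomus cells. Accessory and core medians were thus both higher in hypoxia, and the accessory change was the larger one in neuroblasts. On hypoxic neuroblast replicate 1 the core median was 8.08, against 8.89 to 9.20 on the other 3. Without that array the median neuroblast difference was 1.01 for core genes and 1.35 for accessory genes. No test was made of core against accessory genes, since genes are not replicates.

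**Figure D3:**
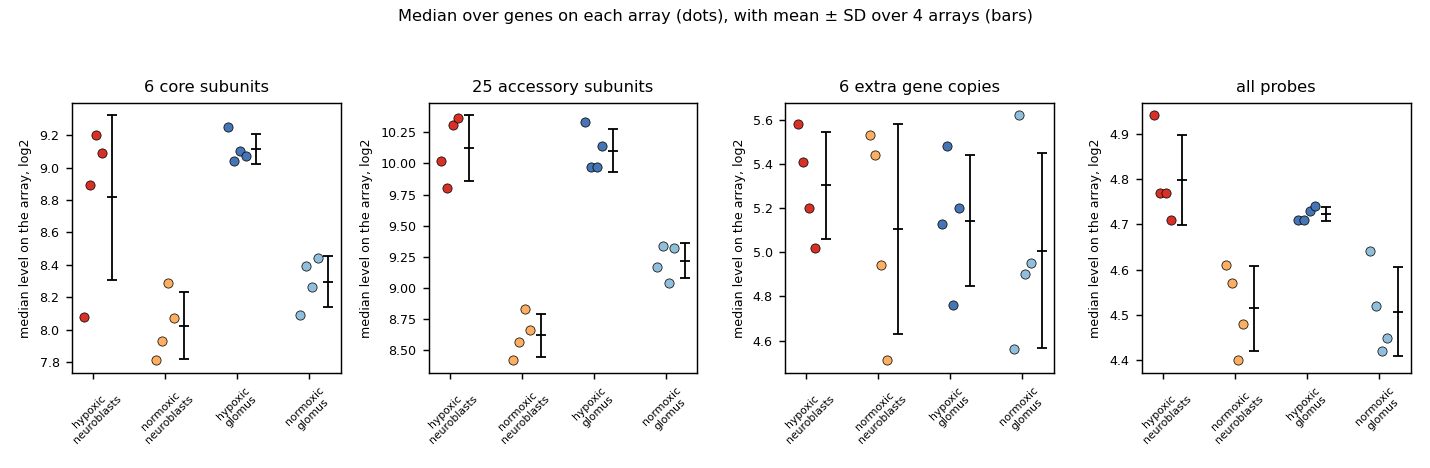
Median log2 level on each array (y axis) of the core genes, the accessory genes, the extra copies and all probes, by group, with bars at the mean ± SD of 4 arrays. The accessory medians lie at 9.80 to 10.36 in hypoxic neuroblasts and 8.42 to 8.83 in normoxic neuroblasts, and the low core point of 8.08 is hypoxic neuroblast replicate 1.

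Across genes, larger differences in neuroblasts went with larger differences in glomus cells. The hypoxia differences in neuroblasts and in glomus cells, which share no arrays, correlated across the 37 genes with r = 0.93, a description over genes that share their arrays within a population. The difference was larger in neuroblasts for 31 genes. The interaction, the neuroblast difference minus the glomus difference, had a median of 0.24, against 0.05 over all probes. By limma 0 of 37 genes passed the interaction test (0.0789% of all probes passed), and 5 had an unadjusted p under 0.05, as did 6.62% of all probes. These 5 were Ndufs5 (0.71 ± 0.32), Ndufa2 (0.69 ± 0.32), Ndufa12 (0.68 ± 0.25), Ndufv3 (0.67 ± 0.23) and Ndufb3 (0.44 ± 0.19), with adjusted p of 0.563 or more. A p that misses the threshold does not show that the populations responded alike.

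In normoxia the genes tended to be lower in neuroblasts than in glomus cells. The difference was below 0 for 35 of 37, with a median of -0.32 against -0.01 over all probes (log2, neuroblasts minus glomus cells). Of the members, 0 were higher and 1 was lower, Ndufv3, where 0.996% of all probes were higher and 0.828% lower. An unadjusted p under 0.05 was seen for 11 of the 37 genes and for 9.36% of all probes. The values of Ndufv3, given above, did not overlap, and it differed by -0.74 ± 0.17 (limma, adjusted p = 0.0243). That call ended under 6 alternatives (adjusted p of 0.0537 to 0.113), among them the average of its probes and the removal of normoxic neuroblast replicate 1, 2 or 4 or normoxic glomus replicate 2 or 4. The normoxic neuroblast arrays all lay below the normoxic glomus arrays for 8 genes (4.03% of all probes) and above them for 0 (3.37%). The 8 were Ndufa1, Ndufa8, Ndufb3, Ndufb7, Ndufb11, Ndufc1, Ndufv3 and Ndufa13-ps1. Ndufa2 had the largest difference, -0.80 ± 0.22, and did not pass (adjusted p = 0.0905).

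After hypoxia no member separated the populations. The median difference was -0.04, against 0.04 over all probes, with 16 genes above 0 and 21 below. By limma 0 of 37 genes passed (0.283% of all probes did), and the groups did not separate for any of the 37, where 2.27% of all probes separated with neuroblasts higher and 2.21% with neuroblasts lower. Ndufv1 (-0.63, adjusted p = 0.432) and Ndufa7 (-0.56, adjusted p = 0.404) were the 2 with an unadjusted p under 0.05, which 11.1% of all probes had. Ndufv3 differed by -0.07 ± 0.17.

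**Figure D4:**
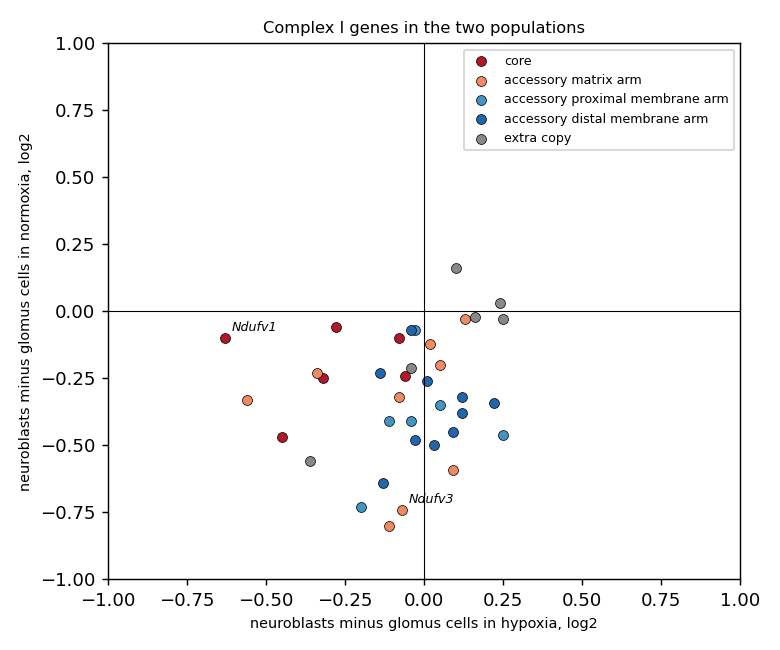
Neuroblast minus glomus cell difference of each complex I gene in hypoxia (x axis, log2) and in normoxia (y axis, log2), coloured by class. In normoxia 35 of 37 points lie below 0, whereas in hypoxia 16 lie above 0 and 21 below.

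The proteins that build complex I were read from a list of 19 assembly factors, of which 17 were measured. In each population 9 rose and 0 fell, where 18.4% of all probes rose in neuroblasts and 9.37% in glomus cells. The median difference was 0.77 in neuroblasts and 0.72 in glomus cells, against 0.25 and 0.17 over all probes. After centring 5 rose in each, beside 6.0% and 4.5% of all probes. Tmem126b, part of the complex that assembles the membrane arm, read 10.24, 9.56, 10.02 and 10.04 in hypoxic neuroblasts, against 7.39, 7.84, 7.97 and 7.78 in normoxic neuroblasts. It measured 10.15, 9.98, 9.72 and 9.76 in hypoxic glomus cells, against 7.86, 7.97, 8.16 and 7.99 in normoxic glomus cells. The groups did not overlap, and it rose by 2.22 ± 0.18 in neuroblasts (adjusted p = 4.45e-07) and 1.91 ± 0.18 in glomus cells (adjusted p = 6.57e-06). Ndufaf8, the partner of the arginine-modifying factor Ndufaf5, rose by 1.77 ± 0.16 and 1.58 ± 0.16, and Ndufaf2, a late assembly factor, by 1.39 ± 0.27 and 1.48 ± 0.27. Acad9, Ecsit and Ndufaf1, which act with Tmem126b, passed in neither population. Ndufab1, the acyl carrier subunit that the naming rule leaves out, rose by 1.23 ± 0.19 in neuroblasts (adjusted p = 0.000102) and 0.84 ± 0.19 in glomus cells (adjusted p = 0.00405).

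Of 9 transcriptional regulators of mitochondrial genes, 1 rose and 2 fell in neuroblasts, and 1 rose and 1 fell in glomus cells. These counts are near the shares of all probes, of which 18.4% rose and 13.7% fell in neuroblasts and 9.37% rose and 9.5% fell in glomus cells. Gabpb1, the activating subunit of GABP, rose by 1.02 ± 0.29 in neuroblasts (adjusted p = 0.0127) and by 1.32 ± 0.29 in glomus cells (adjusted p = 0.0037). Gabpa, its DNA-binding subunit, fell by 1.04 ± 0.21 on the log2 scale in neuroblasts (adjusted p = 0.00157) and fell by 0.64 ± 0.21 in glomus cells (adjusted p = 0.0456). Nrf1, the factor of the NRF-1 motif, differed by -0.78 ± 0.23 in neuroblasts (adjusted p = 0.0155) and -0.33 ± 0.23 in glomus cells (adjusted p = 0.326). The neuroblast call of Gabpb1 ended after centring (adjusted p = 0.0879), that of Nrf1 after quantile normalization (adjusted p = 0.0585), and the glomus call of Gabpa under 8 of 25 alternatives. Ppargc1a, the coactivator of mitochondrial biogenesis, and Tfam, the mitochondrial DNA transcription factor, passed in neither population. The Ppargc1a probe was dim, with group means of 2.66 to 3.32, where the all-probe medians averaged 4.51 to 4.80. A missed call on so dim a probe does not show that the gene was unchanged. Of the subunits the rule sets aside, Ndufa4 differed by 0.35 ± 0.15 in neuroblasts (adjusted p = 0.0925) and 0.80 ± 0.15 in glomus cells (adjusted p = 0.00149), and Ndufa4l2 by -0.17 ± 0.21 (adjusted p = 0.538) and -0.60 ± 0.21 (adjusted p = 0.0588). In glomus cells Ndufa4l2 passed, lower in hypoxia, after centring (-0.81, adjusted p = 0.0297) and after quantile normalization (-0.76, adjusted p = 0.00875).

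**Figure D5:**
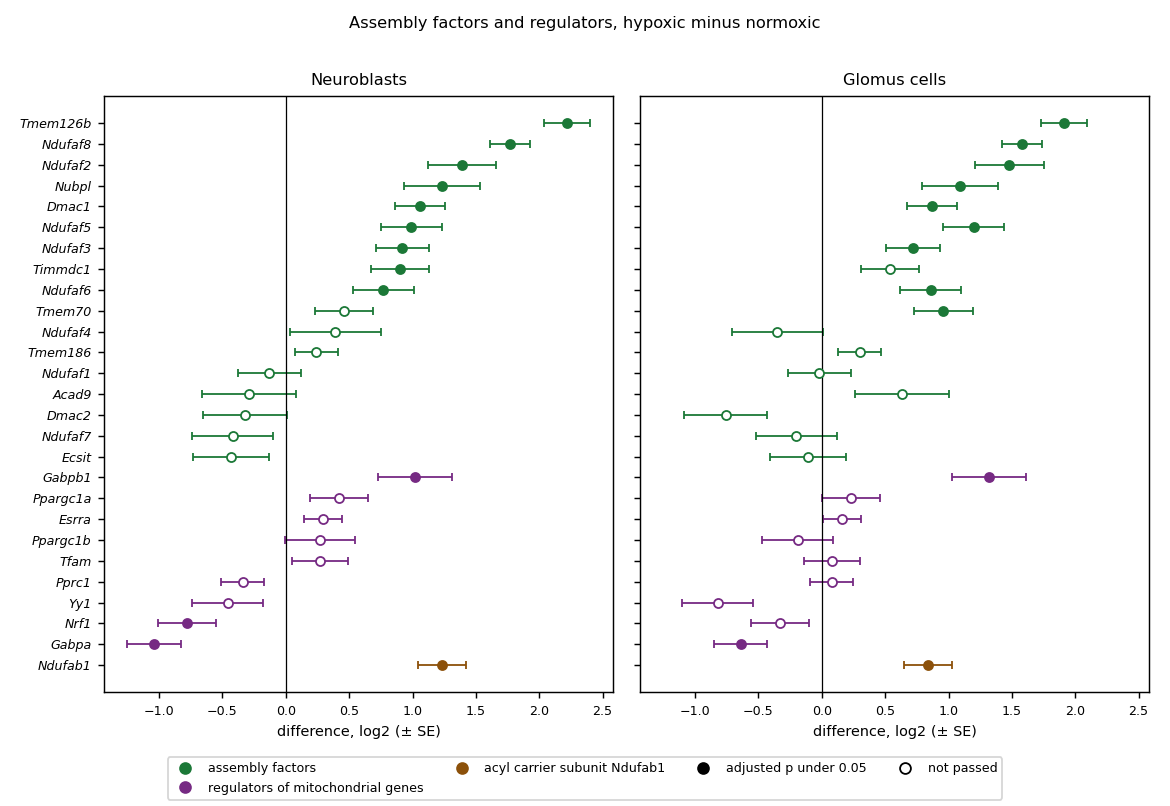
Hypoxic minus normoxic difference (x axis, log2, with limma standard errors) of the assembly factors, regulators and Ndufab1, in neuroblasts on the left and glomus cells on the right, with filled points at an adjusted p under 0.05. Tmem126b, at 2.22 and 1.91, is the highest, and Gabpa is lowest in neuroblasts, at -1.04.

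Other markers moved with the same comparisons, where 18.4% of all probes rose and 13.7% fell in neuroblasts and 9.37% rose and 9.5% fell in glomus cells. Proliferation genes rose after hypoxia, 6 of 6 in neuroblasts and 5 of 6 in glomus cells, with a summed level of 11.36 to 11.59 in hypoxic neuroblasts against 8.10 to 8.31 in normoxic neuroblasts, and 10.5 to 10.80 in hypoxic glomus cells against 8.12 to 8.54 in normoxic glomus cells (log2). Of 12 macrophage markers, 0 rose in neuroblasts and 4 in glomus cells, with a summed level of 8.21 to 8.83 in hypoxic neuroblasts against 7.69 to 8.30 in normoxic neuroblasts, and 10.13 to 10.93 in hypoxic glomus cells against 8.70 to 10.85 in normoxic glomus cells. Of 7 endothelial markers, 2 rose in neuroblasts (Cldn5 and Vwf) and 1 in glomus cells (Cldn5). Their summed level was 8.05 to 8.62 in hypoxic neuroblasts against 6.92 to 7.46 in normoxic neuroblasts, and 10.24 to 10.62 in hypoxic glomus cells against 8.85 to 9.54 in normoxic glomus cells. In glomus cells this sum followed Cldn5, with means of 10.16 in hypoxia and 8.39 in normoxia. The other markers differed there by -0.60 (Tek) to 0.78 (Cdh5), and none of them passed. Of 8 immature neuron genes, 6 fell in neuroblasts, and 5 were higher in neuroblasts than in glomus cells in normoxia (0.996% of all probes were). Of 6 type II and glial markers, 2 rose in neuroblasts, Gfap and S100b, with a summed level of 9.5 to 10.17 in hypoxic neuroblasts against 8.58 to 9.17 in normoxic neuroblasts. In glomus cells 1 of them rose and 1 fell, at 8.35 to 8.92 in hypoxic glomus cells against 8.42 to 8.74 in normoxic glomus cells. Of 6 pericyte and smooth muscle markers, 1 rose and 1 fell in each population, Rgs5 being the one that fell. Their summed level was 11.21 to 11.95 in hypoxic neuroblasts against 12.30 to 12.49 in normoxic neuroblasts, and 11.68 to 12 in hypoxic glomus cells against 12.69 to 12.87 in normoxic glomus cells. This sum followed Rgs5 alone, with means of 11.44 against 12.32 in neuroblasts and 11.78 against 12.76 in glomus cells. The one that rose was Des, by 0.67 ± 0.15 in neuroblasts and 0.56 ± 0.15 in glomus cells. The remaining markers passed in neither population. Of 6 fibroblast markers, 0 passed in either population by limma, and 1 in neuroblasts (Col1a1, lower) and 0 in glomus cells had an unadjusted p under 0.05. Their summed level was 7.86 to 10.18 in hypoxic neuroblasts against 8.43 to 11.94 in normoxic neuroblasts, and 7.69 to 8.94 in hypoxic glomus cells against 7.56 to 9.66 in normoxic glomus cells. The part of these cells in the complex I differences was not tested.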

How the data were processed

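Sorted rat carotid body cells were profiled on Affymetrix arrays from 500 pg of total RNA per sample, per the labels. The authors' deposited values are on a log2 scale, 1 column per sample. Per the submitters' processing notes the tool was Transcriptome Analysis Console, while its version, background correction and normalization between arrays were not given in the sources used here. A log2 base was inferred from the range of 0.87 to 13.33 and the tool. An unknown normalization could shift all genes between arrays, so centred and quantile-normalized values were also tested.

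A mean per group was fitted to all 30429 probes with limma 3.58.1 in R 4.3.3 (12 residual degrees of freedom, no filter), two-sided, with Benjamini-Hochberg adjustment over all probes in each of 5 comparisons and a threshold of 0.05. Errors of differences are limma standard errors. The fitting steps were tested on simulated data. Probes naming several genes (575) or none (11343) stayed in the fit. All 37 members matched the RefSeq gene table by symbol. Promoter windows are from RefSeq, build GRCr8, and 5 members without a window are not in the motif counts. Figures used Python 3.11.15 and matplotlib 3.10.9.

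The members and lists were chosen with earlier results of these data known. The genes given on every array were the core subunits, Ndufb3, Ndufb6 and, in each comparison, up to 5 members with the smallest p per direction among those that passed, 13 in all. Values of Tmem126b on each array were added after they had been seen. The 6 extra gene copies were counted apart from the arms they would otherwise join, which was decided after the data were seen. Medians of a list are descriptions. A planned description by protein length was not run. The alternatives were other scalings, filters on dim probes, an intensity trend, array weights, a fit of only the groups compared, a block for replicate number, averaging of probes, a stricter threshold and leaving out each array. The deviations of same-numbered samples from their group means correlated weakly, at -0.105 to 0.205, with 8 of 24 pairs over 0.1. The number of arrays limits the precision.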

Additional observations from a re-analysis of the deposited data

Results flagged for a closer look

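In 5 of 64 groups of 4 arrays tested, over the 13 complex I genes given on every array, Tmem126b, the core median and the accessory median, 1 array lay far from the other 3, with a gap to its nearest neighbour that passed Dixon's critical value as a share of the group's range. Chance flags about 1 in 20 such groups. Ndufb3 read 12.06 in hypoxic neuroblast replicate 1, above 11.76 to 11.79 on the others. Ndufv1 read 8.32 in the same replicate, below 9.83 to 10.0. Ndufa6 read 8.01 in hypoxic neuroblast replicate 2, below 8.84 to 8.92. Ndufv2 read 8.13 in normoxic neuroblast replicate 1, below 8.49 to 8.52. Ndufa5 read 11.63 in hypoxic glomus replicate 1, above 11.53 to 11.54. What set these arrays apart was not tested.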

How the results depend on the processing

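Of the summaries of the 5 comparisons, 381 values under the alternatives stayed within set limits and 11 moved. The limit was a fixed factor for a count of calls, and the SD between replicates for a median or a difference of medians. Direction was not part of these limits. The median difference between populations in hypoxia was -0.04 in the report, 0.06 after quantile normalization and 0.03 without hypoxic neuroblast replicate 1. Centring each array moved the median difference to 0.78 in neuroblasts and 0.61 in glomus cells, and took the probes of the whole array that rose and fell to 1826 and 5464 in neuroblasts, from 5596 and 4159 without it, and to 1370 and 3783 in glomus cells, from 2852 and 2892. Probes that rose numbered 3278 in neuroblasts after quantile normalization and 3000 with only the groups compared, and 5439 in glomus cells with array weights. The count of members that differed between populations in normoxia, 1 in the report, was 5 with array weights, 0 with probes averaged, 0 at an adjusted p of 0.01 and 0 to 2 when 1 array was left out. With array weights 535 of the 30429 probes were higher and 546 lower in that comparison, from 303 and 252 in the report. Leaving out 1 array gave 28 to 29 members that passed in neuroblasts and 25 to 30 in glomus cells. For the 13 genes, 1561 values kept their call, 38 lost it and 13 gained it. Among values that passed in the report or under the alternative, 0 turned direction. Changes of sign among values that passed in neither were not counted. With the replicate number as a block, 29 members rose and 1 fell in neuroblasts and 28 rose in glomus cells, the same counts as without it in all 5 comparisons. Among all probes 19.3% then rose and 14.2% fell in neuroblasts, and 9.72% rose and 9.95% fell in glomus cells. The samples share only a number. Leaving out the 6 extra copies, chosen after seeing the data, moved no summary past these limits. Signal over background could not be judged, since no background column is used here.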
